A study of Mus musculus with 22 samples.

Results

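The genes described here are 8 genes whose products fill the granules and the cytosol of neutrophils, namely S100a8, S100a9, Mpo, Elane, Ltf, Camp, Ngp and Lcn2. They were followed in the spinal cord of IκBα-dn mice and of wild-type (WT) littermates through all probes that carry their symbols, 10 of the 43379 probes on the arrays. Mpo and Ltf had 2 probes each, and the probe of the lowest number stands for each of these genes unless the other is named. The set was chosen by measured values, since S100a8 and S100a9 had been seen among the largest differences between the genotypes at 6 weeks, so the values of 6 weeks are given below as a description with no test, and the tests concern the other time points.

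All mice were adult females of 3 to 4 months on the C57BL/6 background. IκBα-dn mice carried a dominant-negative form of IκBα, an inhibitor of NF-κB, under the GFAP promoter, which is active in astrocytes. The groups were IκBα-dn mice and WT mice, each naive or studied 3 days, 3 weeks or 6 weeks after a moderate contusion of the thoracic cord, and RNA came from a segment of whole cord centred on the lesion. Each array set 2 mice against each other, 1 labelled with Cy5 and 1 with Cy3, and gives only the log2 ratio between them. Of the 21 arrays used, 10 held an IκBα-dn and a WT mouse of the same time point, 3 of them before injury, 2 on day 3, 2 in week 3 and 3 in week 6, and 11 held mice of 1 genotype at different time points. They carried 23 mice, 3 in each group but for WT mice at 3 weeks, of which 2 were left. No level of a gene can be read from a ratio, so it was not possible to check which genes were above background or whether the cord held neutrophils at all, and in a whole segment of tissue fewer neutrophils and less RNA of these genes per neutrophil cannot be told apart.

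Neutrophils make their granule proteins in the bone marrow in a fixed order. Mpo and Elane are transcribed early, for the primary granules, Ltf, Camp, Ngp and Lcn2 later, for the secondary granules, and S100a8 and S100a9 stay abundant in mature neutrophils and in young monocytes that circulate in the blood. After a contusion, neutrophils are the earliest blood cells to enter the cord in number, ahead of monocytes. Lcn2 is also known as a gene that astrocytes and other resident cells switch on during inflammation.

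S100a8 and S100a9, whose proteins pair to form calprotectin, lie next to each other on chromosome 3, with 22595 bases between them and no other gene in the RefSeq annotation. Camp, Ngp and Ltf lie on chromosome 9, with other genes between them. The 250 bases before the start of the 8 genes (RefSeq, GRCm38.p6) were searched on both strands for TTGCNNAA, a core bound by C/EBP factors, which drive granule genes, and for GGG and TTTCC with any 2 bases between them, a core bound by NF-κB. The search found TTGCNNAA before 4 genes (S100a9, Ltf, Ngp and Lcn2), against 9.56% of all 32851 promoters, and the NF-κB core before 0 of them, against 1.41% of all promoters. Ngp held TTGCNNAA at 2 places. A match is a string of letters and no measured site, and the absence of one says nothing of the factor. The sequences of the calprotectin pair, of Ngp with its 2 matches and of Lcn2, the member that stood apart in the arrays, are shown 5′ to 3′ with matches to TTGCNNAA in capitals. They lie at chr3:90668821-90669070 (+ strand), chr3:90695722-90695971 (− strand), chr9:110419558-110419807 (+ strand) and chr2:32387740-32387989 (− strand).
S100a8: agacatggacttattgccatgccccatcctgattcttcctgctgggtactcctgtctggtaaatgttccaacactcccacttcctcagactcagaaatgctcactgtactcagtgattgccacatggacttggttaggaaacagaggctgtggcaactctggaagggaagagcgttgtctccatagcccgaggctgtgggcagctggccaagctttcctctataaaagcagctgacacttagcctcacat
S100a9: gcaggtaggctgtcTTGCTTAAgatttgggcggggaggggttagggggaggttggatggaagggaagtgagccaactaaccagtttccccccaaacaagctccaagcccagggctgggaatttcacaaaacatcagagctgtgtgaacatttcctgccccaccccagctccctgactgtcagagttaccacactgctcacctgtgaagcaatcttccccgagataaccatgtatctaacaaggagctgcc
Ngp: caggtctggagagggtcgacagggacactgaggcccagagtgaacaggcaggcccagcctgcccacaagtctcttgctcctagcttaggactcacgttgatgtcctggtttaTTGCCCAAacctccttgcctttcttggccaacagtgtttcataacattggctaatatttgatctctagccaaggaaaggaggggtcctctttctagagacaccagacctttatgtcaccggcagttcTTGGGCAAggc
Lcn2: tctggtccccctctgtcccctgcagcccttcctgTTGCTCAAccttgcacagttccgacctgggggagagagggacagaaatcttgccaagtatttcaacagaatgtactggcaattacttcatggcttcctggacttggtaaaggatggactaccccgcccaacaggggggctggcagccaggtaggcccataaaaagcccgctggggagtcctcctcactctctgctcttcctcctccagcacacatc

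S100a8 and S100a9 swung widely between pairs of mice, also before injury, and no difference between the genotypes passed the test at the time points that could be tested. On the 3 arrays of naive mice, the log2 ratio of S100a8 in IκBα-dn over WT cords was 2.68, 0.24 and −1.85. It was 2.08 and 1.28 on the 2 arrays of day 3, 2.55 and −0.20 on the 2 arrays of week 3, and 3.23, 2.10 and 1.32 on the 3 arrays of 6 weeks. Only at 3 days and at 6 weeks did all arrays lie on the same side of 0, and the naive arrays ran far to both sides of it. S100a9 gave ratios of 2.44, 0.02 and −1.24 before injury, 1.91 and 0.65 on day 3, 1.62 and −0.43 in week 3, and 3.03, 2.20 and 1.35 in week 6. The order of the arrays within each time point was the same for both genes.

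In the fit over all arrays, which puts the 8 groups on one scale and removes the dye effect of each probe, the difference of S100a8 between IκBα-dn and WT cords was 0.45 ± 0.71 on the log2 scale before injury (estimate ± SE, as for all fitted values below), 1.15 ± 0.80 on day 3 and 1.47 ± 0.85 in week 3. None of these passed the test (limma, adjusted p = 1.00, 0.892 and 1.00 over all probes), and their 95% intervals were wide, from −1.06 to 1.96 before injury, from −0.54 to 2.84 on day 3 and from −0.33 to 3.27 in week 3, so that a difference of several fold at 3 days or 3 weeks was not detectable with these mice. The values of S100a9 were 0.47 ± 0.61 before injury, 0.79 ± 0.68 on day 3 and 0.99 ± 0.72 in week 3, and none of these passed the test. No probe on the arrays passed it in these comparisons (0% of 43379 in each), and at an unadjusted p under 0.05 it was 2.74% before injury, 6.93% on day 3 and 2.24% in week 3, with 0 of the 8 genes among them at any of these times. The naive difference of S100a8 turned on single mice. It was −0.58 without IκBα-dn naive replicate 1, −0.39 without WT naive replicate 3 and 1.66 without WT naive replicate 2. On day 3 the difference of S100a8 ran from 0.47 without IκBα-dn 3-day replicate 3 to 1.63 without IκBα-dn 3-day replicate 1, and in week 3 from 0.51 without IκBα-dn 3-week replicate 3 to 2.67 without IκBα-dn 3-week replicate 1. Leaving out the same mice gave the ends of the range for S100a9, 0.12 and 1.28 on day 3 and 0.29 and 1.95 in week 3.

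At 6 weeks, the time point by which the set was chosen, the fitted difference was 2.19 ± 0.72 for S100a8, or 4.56-fold, and 2.11 ± 0.61 for S100a9, or 4.31-fold. In this comparison 19.9% of all probes passed the threshold, and for the 8 genes no test is given, since the same values chose the set. Relative to naive mice of the same genotype, S100a8 stood at 0.52 ± 0.84 in IκBα-dn mice and −1.22 ± 0.87 in WT mice, and S100a9 at 0.42 ± 0.71 in IκBα-dn mice and −1.22 ± 0.74 in WT mice. Other transcripts differed at the same time point. The median difference at 6 weeks was −0.68 over 15 neuronal genes, 0.43 over 21 genes of monocytes and macrophages and 0.49 over 12 genes of reactive astrocytes. It was 0.28 over 21 other granule genes, of which 2 passed the threshold as higher and 1 as lower. Over 20 genes of the neutrophil surface and cytosol it was 0.19, and 0 of them passed. Over 14 proliferation genes it was 0.50, over 8 platelet genes 0.41 and over 12 red blood cell genes 0.03. The median over all probes was 0.02. Of the neuronal genes, 9 passed the threshold as lower in IκBα-dn cords and 0 as higher. As higher, 3 genes of monocytes and macrophages and 2 of reactive astrocytes passed, and 0 of either list as lower. These counts stand beside the 19.9% of all probes that passed. The part of these shifts in the difference of S100a8 and S100a9 was not tested.

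**Figure D1:**
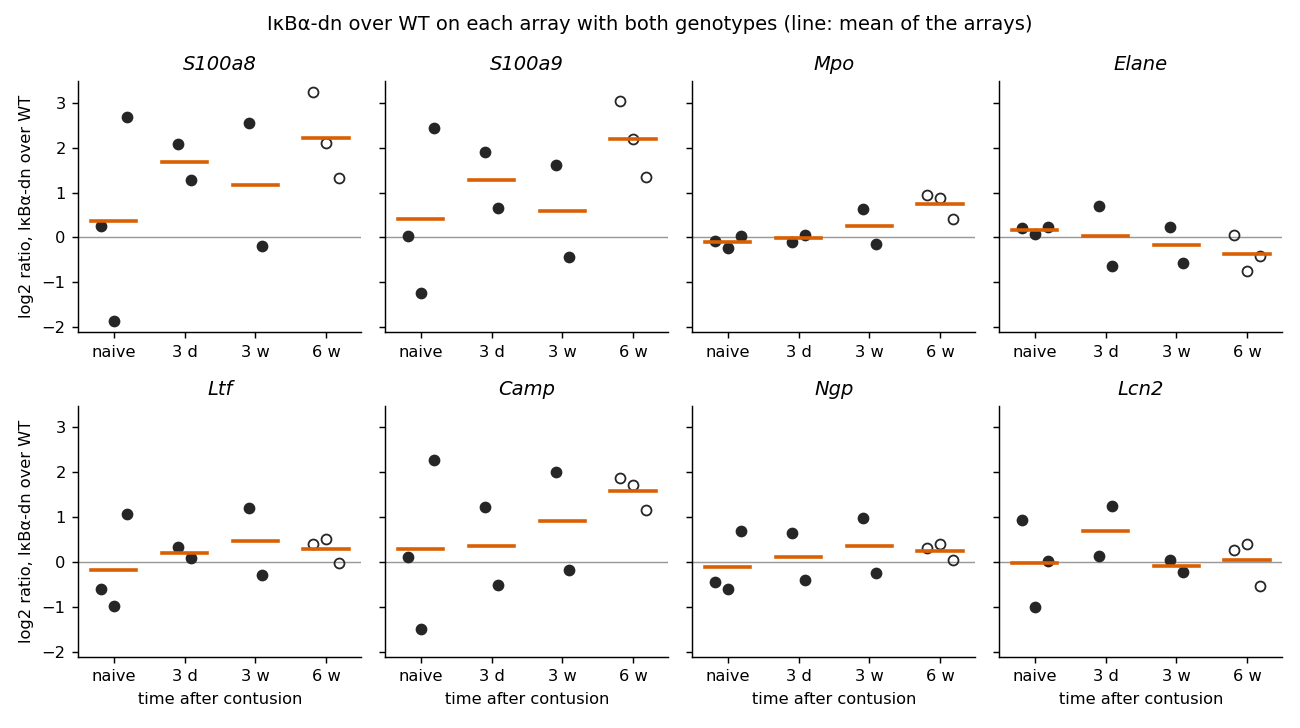
The log2 ratio of IκBα-dn over WT (vertical axis) is plotted for each of the 10 arrays that held both genotypes at 1 time point, by time after contusion, for the 8 genes. Points are single arrays after removal of the dye effect, open at 6 weeks where the values chose the genes, and lines are means of the arrays. For S100a8 the naive arrays run from −1.85 to 2.68, and the 3 arrays of 6 weeks lie between 1.32 and 3.23.

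The primary granule genes varied least between naive mice. Mpo, the peroxidase that makes hypochlorous acid, gave ratios of IκBα-dn over WT between −0.23 and 0.03 on the naive arrays, of −0.10 and 0.06 on day 3, 0.64 and −0.15 in week 3, and 0.94, 0.87 and 0.41 in week 6. By this probe it was near 0 in naive mice and on day 3, and the 3 arrays of 6 weeks were all above those of naive mice. By the other probe they were not, with 0.76, 0.51 and −0.06 at 6 weeks against −0.19 to 0.00 in naive mice. The fitted difference was −0.01 ± 0.19 before injury, −0.11 ± 0.22 on day 3, 0.42 ± 0.23 in week 3 (none passed the test) and 0.58 ± 0.20 in week 6. This other probe, with a dye effect of 0.41, gave a fitted difference of 0.06 ± 0.21 at 3 weeks and 0.33 ± 0.18 at 6 weeks, and the 2 probes correlated at r = 0.48 over the 21 arrays. Elane, neutrophil elastase, ran from 0.09 to 0.22 on the 3 naive arrays, lay at 0.70 and −0.63 on day 3 and at 0.23 and −0.56 in week 3, and ran from −0.74 to 0.06 at 6 weeks. At each time after injury its arrays lay on both sides of 0, and no difference before 6 weeks passed the test.

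Camp, the precursor of the cathelicidin peptide that lyses bacteria, had a pattern close to that of the calprotectin pair. Its ratios of IκBα-dn over WT were 2.28, 0.12 and −1.50 on the naive arrays, 1.23 and −0.50 on day 3, 2.00 and −0.17 in week 3, and 1.87, 1.71 and 1.16 in week 6. Only in week 6 were all arrays on the same side of 0. The fitted difference was 0.49 ± 0.53 before injury, 0.18 ± 0.59 on day 3, 0.95 ± 0.63 in week 3 and 1.43 ± 0.53 in week 6, and the 3 that could be tested did not pass. Ltf, lactoferrin, which withholds iron from bacteria, gave 1.06, −0.60 and −0.98 on the naive arrays, 0.33 and 0.09 on day 3, 1.22 and −0.28 in week 3, and 0.51, 0.41 and −0.01 in week 6. Its other probe was higher at 6 weeks (1.49, 1.03 and 0.49), and the fitted differences at 6 weeks were 0.23 ± 0.31 and 0.87 ± 0.35 for the 2 probes, which correlated at r = 0.71 over the arrays. Ngp, a cystatin-like granule protein of mouse neutrophils, ran from −0.60 to 0.70 on the naive arrays, lay at 0.64 and −0.40 on day 3 and at 0.98 and −0.24 in week 3, and ran from 0.05 to 0.40 in week 6, with a fitted difference of 0.14 ± 0.31 at 6 weeks. Lcn2, which binds the siderophores by which bacteria take up iron, gave 0.95, 0.02 and −0.99 on the naive arrays, 1.25 and 0.13 on day 3, 0.05 and −0.21 in week 3, and 0.41, 0.27 and −0.52 in week 6. The arrays of Ltf, Ngp and Lcn2 lay on both sides of 0 at most time points, and no difference of these 3 genes between the genotypes passed the test before week 6.

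Over the 8 genes the median difference between IκBα-dn and WT cords was 0.03 before injury, 0.13 on day 3, 0.56 in week 3 and 0.40 in week 6, and the median over all probes lay between −0.02 and 0.02 at these times. The change of the genotype difference between naive mice and 3 days passed the test for 0 of the 8 genes and for 0% of all probes (3.34% at an unadjusted p under 0.05, none of them among the 8 genes). For S100a8 this change was 0.71 ± 1.03, with a 95% interval from −1.47 to 2.88.

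After contusion, Lcn2 was the 1 gene of the 8 that passed the test, in IκBα-dn mice on day 3. On the arrays that set 3 days directly against naive mice it was higher by 1.71 in IκBα-dn mice and by 2.43 in WT mice on the log2 scale, and on those of 3 weeks against naive mice by 1.24 in IκBα-dn mice and by 0.73 in WT mice. At 6 weeks against naive mice it was higher by 1.91 in IκBα-dn mice and by 1.03 in WT mice. All 6 of these arrays, 1 for each genotype and time, lay above 0. In the fit, Lcn2 at 3 days stood 1.88 ± 0.43 above naive mice in IκBα-dn mice (3.69-fold, limma, adjusted p = 0.0148), where 6.45% of all probes passed the test, and 1.35 ± 0.42 above naive mice in WT mice (adjusted p = 0.107), where 1.98% passed. At 3 weeks it stood 1.62 ± 0.43 above naive mice in IκBα-dn mice (adjusted p = 0.111), where 0.634% of all probes passed, and 1.73 ± 0.46 above naive mice in WT mice (adjusted p = 0.0963), where 1.07% passed. The difference of its early response between the genotypes was 0.53 ± 0.52, with an interval from −0.57 to 1.64, and did not pass the test. The call in IκBα-dn mice at 3 days was lost without IκBα-dn 3-day replicate 1 (1.93, adjusted p = 0.0854) and without IκBα-dn naive replicate 1 (2.10, adjusted p = 0.0592), while in WT mice at 3 days Lcn2 passed the test without WT 3-day replicate 2 (1.95, adjusted p = 0.00744), without WT naive replicate 2 (1.81, adjusted p = 0.0322) and without WT 3-week replicate 2 (1.71, adjusted p = 0.0418). At 3 weeks it passed the test in IκBα-dn mice without WT naive replicate 1 (1.68, adjusted p = 0.0430) or WT naive replicate 2 (1.75, adjusted p = 0.0442), and in WT mice without WT naive replicate 2 (2.59, adjusted p = 0.0350).

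None of the other 7 genes passed the test against naive mice on day 3 or in week 3 in either genotype. On the arrays of 3 days against naive mice, S100a8 was at −1.19 in IκBα-dn mice and 1.30 in WT mice, and S100a9 at −1.49 in IκBα-dn mice and 0.91 in WT mice. Camp was at −2.37 in IκBα-dn mice and 0.10 in WT mice. On the arrays of 3 weeks against naive mice, S100a8 was at 1.15 in IκBα-dn mice and −1.32 in WT mice, and S100a9 at 1.23 in IκBα-dn mice and −0.82 in WT mice. These single arrays pointed opposite ways at the 2 time points. The fitted change of S100a8 from naive mice was 0.74 ± 0.85 in IκBα-dn mice and 0.03 ± 0.82 in WT mice at 3 days, and 1.38 ± 0.84 in IκBα-dn mice and 0.35 ± 0.91 in WT mice at 3 weeks. Camp changed by −1.04 ± 0.63 in IκBα-dn mice and −0.74 ± 0.61 in WT mice at 3 days. None of these values passed the test. The median change over the 8 genes was −0.28 in IκBα-dn mice and −0.18 in WT mice at 3 days, against medians of −0.06 and −0.02 over all probes, and 0.55 in IκBα-dn mice and 0.17 in WT mice at 3 weeks, against −0.02 and −0.03.

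**Figure D2:**
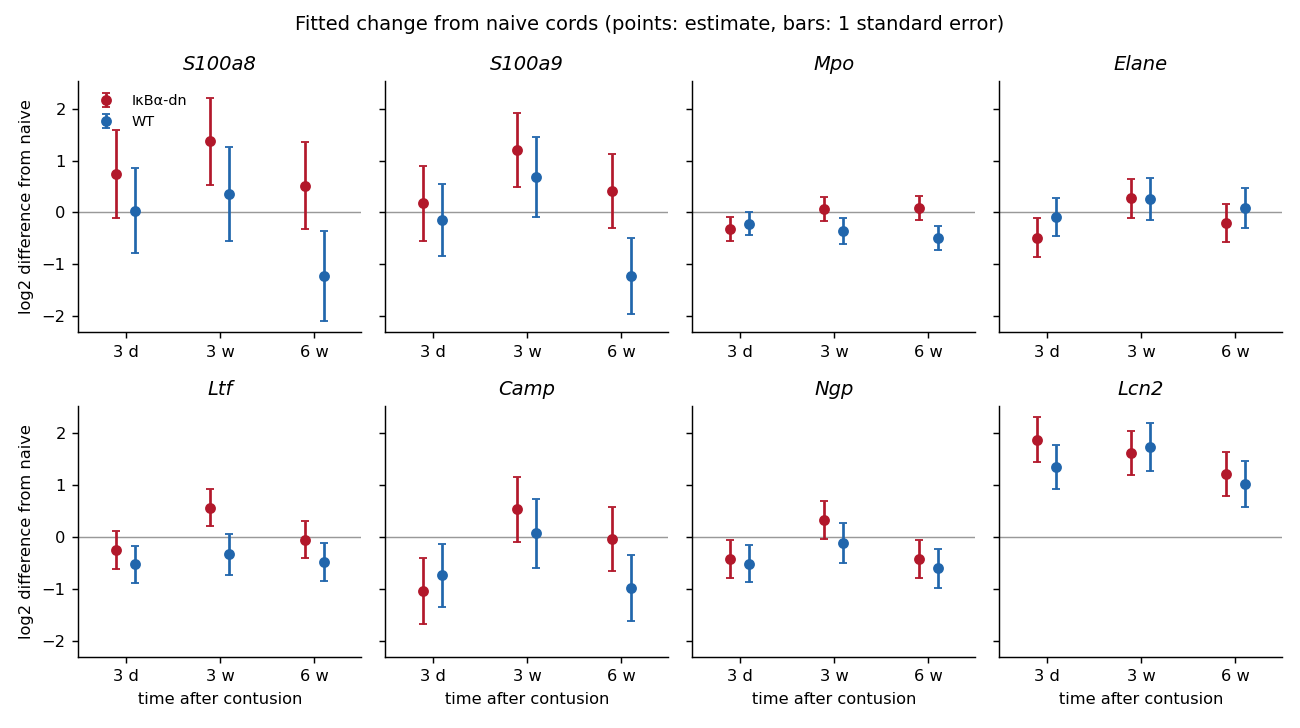
The fitted log2 difference from naive mice (vertical axis) is plotted against time after contusion for the 8 genes in IκBα-dn mice (red) and WT mice (blue), with bars of 1 standard error. Lcn2 lies above 0 at all times in both genotypes, at 1.88 in IκBα-dn mice and 1.35 in WT mice at 3 days, while the bars of S100a8 cross 0 except in IκBα-dn mice at 3 weeks and in WT mice at 6 weeks.

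The calprotectin pair spread widely between mice that had not been injured. Over the 3 arrays of naive mice, the root mean square of the log2 ratio was 1.89 for S100a8, 1.58 for S100a9, 1.57 for Camp, 0.90 for Ltf, 0.79 for Lcn2, 0.59 for Ngp, 0.19 for Elane and 0.14 for Mpo, against a median of 0.21 over all probes. The 3 highest, S100a8, S100a9 and Camp, exceeded at least 99.93% of all probes by this measure, and Mpo and Elane were below its median. These arrays held no injured mouse. On them the median over the 8 genes ran from −0.99 to 0.88. The median over 21 other granule genes lay between −0.16 and 0.14, that over 20 genes of the neutrophil surface and cytosol between −0.01 and 0.06, that over 12 red blood cell genes between −0.19 and −0.07, that over 21 monocyte and macrophage genes between −0.13 and 0.08 and that over 8 platelet genes between −0.28 and 0.21. The medians of the other neutrophil lists and of other blood cells ran less far from 0 there than that of the 8 genes. Among these lists the platelet median ran widest, and the red blood cell median was below 0 on all 3 arrays. Single genes of these lists ran wider. Among those most like the pair (below), Retnlg ran from −1.07 to 1.55, Hp from −1.33 to 0.15, Wfdc21 from −0.99 to 0.64 and Ppbp from −0.95 to 0.35. Ctsg stayed between −0.07 and 0.16 and Trem3 between 0.00 and 0.37. The part of any of these cells in the spread was not tested.

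Where arrays join mice into a chain or a ring, the relative level of each mouse can be worked out, and the arrays fell into 5 such sets, of 8, 2, 4, 4 and 5 mice. Within the set of 8, S100a8 spanned 3.73 log2 units, with the highest level in IκBα-dn 3-week replicate 3 (2.38 above the mean of the set), the next in IκBα-dn naive replicate 1 (1.36), and the lowest in WT naive replicate 3 (−1.35) and WT 6-week replicate 1 (−1.30). A naive mouse thus stood near the top of the set and another at its bottom. In the sets of 4 mice the span was 3.32 and 2.06, and the highest was IκBα-dn 3-day replicate 3 (1.54) in one and WT naive replicate 2 (1.07) in the other. In the set of 5, IκBα-dn 6-week replicate 1 was highest (1.75) and WT 6-week replicate 3 lowest (−1.48). The 3 WT mice of 6 weeks were the lowest or the second lowest for S100a8 in the 3 sets that held them, at −1.30, −1.78 and −1.48. Each of these levels rests in part on an array of 6 weeks with both genotypes. The values of 6 weeks chose the set, so these ranks restate them in part and are a description only. The ratios around a closed ring should add up to 0, which measures the error of the arrays themselves. Around the 3 rings of 8, 4 and 4 arrays, the ratios of S100a8 missed 0 by 0.23, 0.93 and 0.82, against spans of 3.73, 3.32 and 2.06 between the mice of those rings. Those of S100a9 missed 0 by 0.74, 0.89 and 1.24, against spans of 3.50, 2.61 and 1.55. Elane missed 0 by 0.75, 1.54 and 1.25 against spans of 1.30, 0.74 and 0.51, so in the rings of 4 its error was larger than its differences between mice. Mpo missed 0 by 0.57, 0.36 and 0.51 against spans of 0.73, 0.78 and 0.69. The other probe of Ltf missed it by 0.46, 0.12 and 1.16 against spans of 2.18, 1.46 and 1.24. The median miss over all probes was between 0.26 and 0.28.

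**Figure D3:**
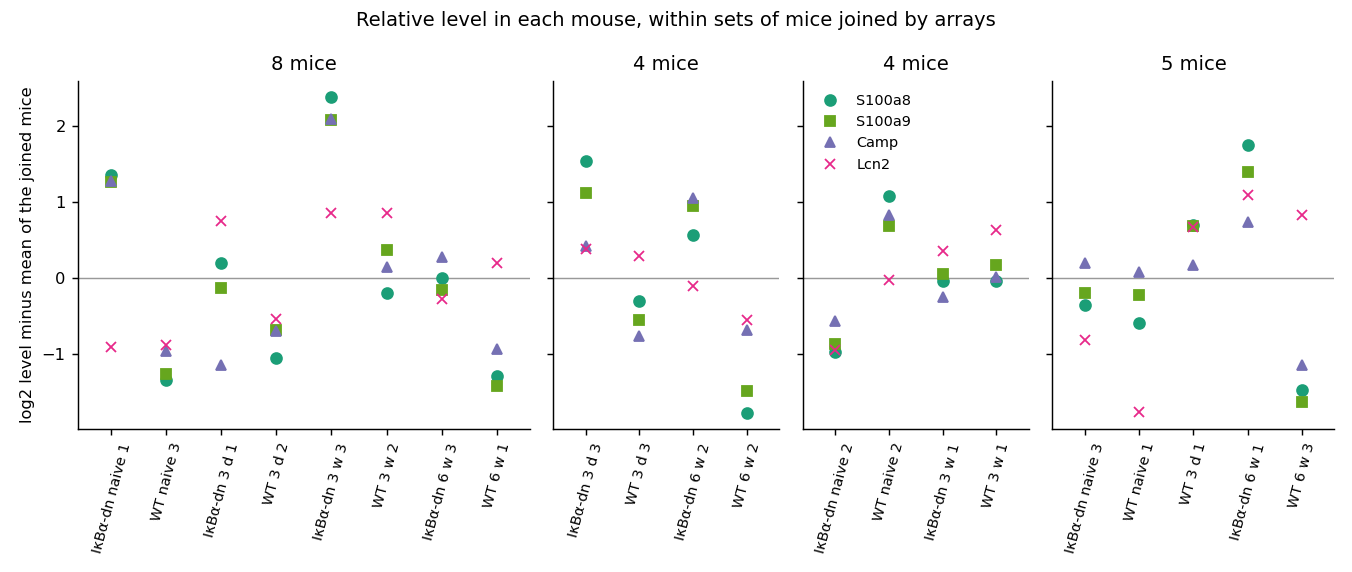
The log2 level of each mouse relative to the mean of the mice joined to it by arrays (vertical axis) is plotted for S100a8, S100a9, Camp and Lcn2 in 4 of the 5 sets, with the mice of each set in order of time. Levels cannot be compared between panels. S100a8 runs from 2.38 in IκBα-dn 3-week replicate 3 to −1.78 in WT 6-week replicate 2, each relative to its own set.

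S100a8 and S100a9 moved together over the 21 arrays, with r = 0.97 between their log2 ratios of Cy5 over Cy3, and r = 0.97 on the 13 arrays without any mouse of 6 weeks. Camp correlated with S100a8 at r = 0.83 and with S100a9 at 0.89, Ltf at 0.73 and 0.75, Ngp at 0.68 and 0.71, and Mpo at 0.61 and 0.65. On the 13 arrays without mice of 6 weeks, S100a8 correlated at 0.83 with Camp, 0.80 with Ltf, 0.71 with Ngp and 0.44 with Mpo. The 3 secondary granule genes Camp, Ltf and Ngp correlated with each other at 0.83 to 0.85. Lcn2 was weakly related to them, with r = 0.44 to S100a8, 0.36 to S100a9, 0.06 to Camp, 0.07 to Ltf and 0.03 to Ngp. Elane reached 0.61 with Ngp and 0.31 with S100a8. On the 13 arrays without mice of 6 weeks, Elane stood at 0.47 with S100a8, 0.62 with S100a9, 0.68 with Camp and 0.68 with Ngp. Its r with S100a8 was 0.63 on the 11 arrays of 1 genotype and −0.11 on the 10 arrays with both genotypes. Arrays share mice and the dye labelling, so they are not independent points, and these values are descriptions.

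**Figure D4:**
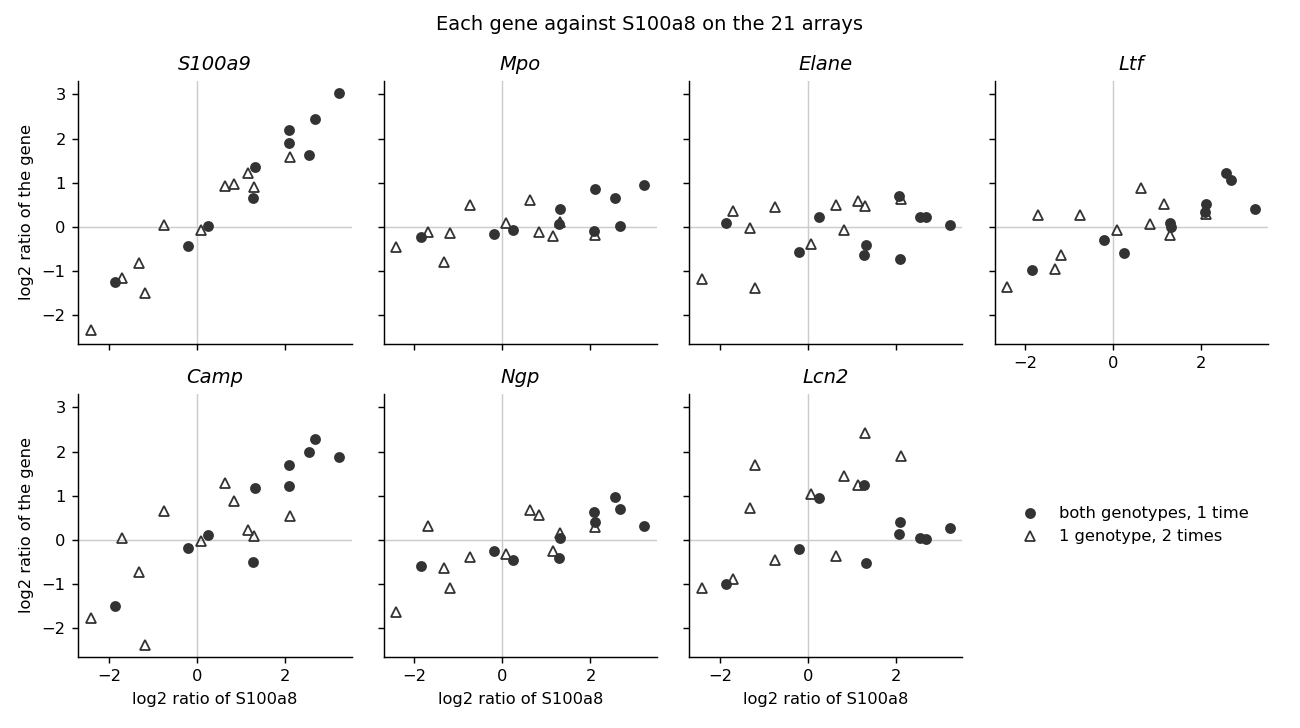
The log2 ratio of each of the other 7 genes (vertical axes) is plotted against that of S100a8 (horizontal axis) on the 21 arrays, as IκBα-dn over WT on arrays with both genotypes (filled circles) and later over earlier time on arrays of 1 genotype (open triangles). S100a9 lies along a line, Camp, Ltf and Ngp follow with more scatter, and Lcn2 is at 1.71 on the array where S100a8 is at −1.19.

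The genes most like the mean of S100a8 and S100a9 over the 21 arrays, among 19079 other named genes, were Retnlg (r = 0.94), Hp (0.85), Ppbp (0.78), Wfdc21 (0.78), Mill2 (0.73), Ctsg (0.73), Olfr203 (0.71), Myct1 (0.69), Trem3 (0.69) and Alox12 (0.68). Retnlg encodes a resistin-like protein that mouse neutrophils secrete, Hp is haptoglobin, which binds free haemoglobin, Ctsg is cathepsin G of the primary granules, and Ppbp and Alox12 are known from platelets. Retnlg ran from −1.07 to 1.55 on the naive arrays and held its likeness on the 13 arrays without mice of 6 weeks (r = 0.93), as did Wfdc21 (0.90). On those arrays Hp stood at 0.77, Trem3 at 0.73, Mill2 at 0.71 and Ppbp at 0.62. Ctsg stood at 0.58 there, Olfr203 at 0.52, Alox12 at 0.49 and Myct1 at 0.37. The counts that follow rest on all 21 arrays and are descriptions. These arrays include the mice of 6 weeks, whose values chose the pair, and no count was made without them. Of all named genes, 217 (1.14%) had an r over 0.5. Among the fixed lists this was so for 8 of 21 other granule genes (Ctsg, Mmp8, Cd177, Pglyrp1, Chil3, Hp, Slpi and Anxa1), for 3 of 20 genes of the neutrophil surface and cytosol (Retnlg, Trem3 and Wfdc21), for 2 of 21 genes of monocytes and macrophages (Ly6c1 and Ly6c2), for 1 of 8 platelet genes and 1 of 10 attractants (Ppbp, which is in both lists), for 1 of 14 lymphocyte genes (Ms4a1), for 2 of 12 red blood cell genes (Slc4a1 and Alas2) and for 0 of 15 neuronal genes, 0 of 12 genes of reactive astrocytes and 0 of 14 proliferation genes. The globin genes Hba-a1 and Hbb-bt, which red cells express most, had r = 0.03 and 0.09 with the pair.

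Retnlg, the nearest gene of the calprotectin pair, also headed the list for Camp (r = 0.93), Ltf (0.86) and Ngp (0.85), and Slc4a1, the anion exchanger of red cells, was among the 3 nearest for Camp (0.80), Ltf (0.74) and Mpo (0.81). For Mpo, Ctsg (0.78) and Cyp2f2 (0.76) followed. Scgb1a1, a secretoglobin known from airway cells, came after Retnlg for Ltf (0.75). Lcn2 was nearest to Sprr1a (0.90), a gene of injured neurons, Fn1 (0.90), fibronectin of the extracellular matrix, and Ddit3 (0.90), a transcription factor of the stress response, and none of these was among the 3 nearest of another member. Elane was nearest to Cldn8 (0.82), Mab21l4 (0.75) and Adgrf2 (0.74). These values rest on all 21 arrays, which include the mice of 6 weeks. On the 13 arrays without those mice, Retnlg stood at 0.94 with Camp, 0.90 with Ltf and 0.88 with Ngp. Slc4a1 stood there at 0.71 with Camp, 0.81 with Ltf and 0.73 with Mpo. For Mpo, Ctsg fell to 0.57 and Cyp2f2 to 0.70, and for Ltf, Scgb1a1 fell to 0.66.

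Other genes of neutrophils and of their recruitment were followed after contusion from lists chosen for their roles. In these counts and those below, a gene rose or fell only where its change passed the test. Their counts stand beside shares of all probes that passed the test of 6.45% in IκBα-dn mice and 1.98% in WT mice at 3 days, and of 0.634% in IκBα-dn mice and 1.07% in WT mice at 3 weeks, and no difference between the counts of the genotypes was tested. The share in WT mice at 3 days, 859 probes, rested on single mice and became 0 without WT 3-day replicate 1 or 3 or WT naive replicate 1, and 2762 probes without WT 3-day replicate 2. Of 21 other granule genes, 4 rose and 0 fell at 3 days in IκBα-dn mice and 0 passed the test in WT mice, with medians of 0.53 in IκBα-dn mice and 0.31 in WT mice. They included Chil3, a chitinase-like protein that macrophages also make, which stood 3.52 above naive mice in IκBα-dn mice and 2.08 in WT mice, and Cybb, the oxidase subunit shared with macrophages, at 2.44 in IκBα-dn mice and 1.33 in WT mice, of which only the values in IκBα-dn mice passed the test. Pglyrp1, a peptidoglycan-binding protein, rose by 0.85 in IκBα-dn mice and stood at 0.50 in WT mice. In week 3 Cybb rose by 2.15 in IκBα-dn mice and 2.47 in WT mice. Of 20 genes of the neutrophil surface and cytosol, 6 rose at 3 days in IκBα-dn mice and 2 in WT mice. Il1r2, the decoy receptor of interleukin 1, rose by 1.39 in IκBα-dn mice and 0.76 in WT mice, and Ncf1, an oxidase subunit of all phagocytes, by 1.67 in IκBα-dn mice and 1.07 in WT mice.

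Of 10 factors that direct granulocyte development, 5 rose at 3 days in IκBα-dn mice and 1 in WT mice. Cebpd stood 2.92 above naive mice in IκBα-dn mice (limma, adjusted p = 0.00249) and 1.97 in WT mice (adjusted p = 0.0541), and Spi1, which also directs macrophages and microglia, at 1.20 in IκBα-dn mice and 0.74 in WT mice. Of 10 genes listed as attractants of neutrophils, Il1b, a cytokine and no chemokine, alone passed the test at 3 days. It stood at 1.32 in IκBα-dn mice and 1.06 in WT mice at 3 days, and it rose at 3 weeks by 1.34 in IκBα-dn mice and 1.68 in WT mice. Cxcl1, a chemokine that binds Cxcr2, was at 0.86 in IκBα-dn mice and 0.37 in WT mice at 3 days. Of 11 receptors of the member proteins, Tlr4, a receptor of calprotectin, rose at 3 days in IκBα-dn mice (1.17, limma, adjusted p = 0.0349) and was at 0.94 in WT mice. Of 12 other S100 genes, S100a11 rose at 3 days by 2.17 in IκBα-dn mice and 1.48 in WT mice, and S100a6 rose by 1.09 in IκBα-dn mice and was at 1.00 in WT mice, where it did not pass the test.

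Markers of cells other than neutrophils were read on the same arrays, against the same shares of all probes (6.45% in IκBα-dn mice and 1.98% in WT mice at 3 days) and again with no test between the genotypes. Of 21 genes of monocytes and macrophages, 10 rose at 3 days in IκBα-dn mice and 5 in WT mice, 0 fell, and the medians were 0.92 in IκBα-dn mice and 0.68 in WT mice. Msr1, the scavenger receptor of macrophages, stood 4.47 above naive mice in IκBα-dn mice and 2.80 in WT mice. Of 12 genes of reactive astrocytes, 8 rose at 3 days in IκBα-dn mice and 4 in WT mice, with medians of 1.28 in IκBα-dn mice and 0.86 in WT mice. Lcn2 rose at the same time, and the part of these cells in its rise was not tested. Of 12 red blood cell genes, 0 passed the test at 3 days or 3 weeks in either genotype.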

How the data were processed

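RNA of single mice was compared in pairs on 2-colour Agilent whole mouse genome arrays. Per the labels and the methods, the authors amplified and labelled the RNA, scanned the arrays, removed poor features, applied lowess to each array and then quantile normalization across them with limma, and deposited 1 log2 ratio per probe and array. The deposited log2 values were used as they stood, with scale and direction (Cy5 over Cy3) taken from the labels and checked on the arrays of 3 days against naive mice, where 21 of 21 monocyte and macrophage genes were higher. Spot intensities were not used here, so the signal over background is unknown, and the number of arrays limits the precision. Of 22 arrays, 1 was excluded, since its Cy3 mouse is labelled as 3 days in 1 place and as 3 weeks in another.

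limma 3.58.1 in R 4.3.3 was fitted to 21 arrays and 43379 probes with each array coded as its Cy5 group less its Cy3 group. The fit held 1 dye term and the mice as a random effect (13 residual degrees of freedom). The share of the variance of an array due to its mice was set at 0.43 for all probes, which correlates arrays that share a mouse. P-values are two-sided and were adjusted over all probes by Benjamini-Hochberg. A change passed the test at an adjusted p under 0.05. The dye term passed it at 58.2% of probes. Probes were named through the platform annotation given with the series (33653 with 1 gene symbol, 56 with several, 9670 with none). Likeness is Pearson's r of log2 ratios with the dye effect removed. Python 3.11.15 and matplotlib 3.10.9 drew the figures, and the scripts were tested on simulated data. Labels call the mice biological replicates. The genes, lists and tests were chosen with earlier results of these data known. Genes of other lists were named by the smallest p over the 3-day and 3-week responses (up to 4 a list), the nearest genes by r, the 10 highest for S100a8 and S100a9 and 3 for each other member. Alternatives concerned the dye term, the correlation between arrays, the arrays and mice used, normalization, probes, the threshold, the variance prior and a replicate block.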

Additional observations from a re-analysis of the deposited data

How the results depend on the processing

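Each result was recomputed under 38 of 39 other settings, since 1 kind of array cannot give every comparison, 23 of them leaving out 1 mouse in turn. The counts of members that passed the test for IκBα-dn minus WT before injury, on day 3 and in week 3, and for the change of the genotype difference from naive mice to 3 days, were 0 under all of them. At 3 days against naive mice in IκBα-dn mice the count of 1 (Lcn2) became 0 with the replicate block, with arrays within 1 genotype only, with an adjusted p under 0.01, and with an adjusted p under 0.001 and a fold over 2, and ran from 0 to 1 with single mice left out. In WT mice the count at 3 days became 1 with a dye term for each slide, and the count at 3 weeks became 1 with the array of conflicting labels added and read as 3 weeks. With single mice left out the counts in WT mice ran from 0 to 1 at 3 days and at 3 weeks, as did that of IκBα-dn mice at 3 weeks. In each case the member was Lcn2, and the cause was not tested. At 3 days against naive mice in IκBα-dn mice, Lcn2 itself ran from 1.54 to 2.10 with adjusted p from 0.00541 to 0.194. The labels tie no litter, day or batch to a replicate number. The 9 arrays that hold mice of the same number had a mean squared residual of 0.15 on the log2 scale, against 0.13 on the 12 arrays of different numbers. A shared deviation would make it smaller on the arrays of the same number. The single arrays overlapped, at 0.10 to 0.26 and 0.09 to 0.16, so these values cannot exclude a shared litter, day or batch. The main fit took the mice to share only a number. With the replicate block, Lcn2 at 3 days in IκBα-dn mice stood at 1.94 (limma, adjusted p = 0.0694), and the probes that passed the test in this response numbered 1219, against 2798 without the block. In the other responses they numbered 8 with the block, against 859 without it, for WT mice at 3 days, 5 against 275 for IκBα-dn mice at 3 weeks, and 139 against 464 for WT mice at 3 weeks. With single mice left out, the probes that passed ran from 1385 (without IκBα-dn naive replicate 3) to 2893 for IκBα-dn mice at 3 days, from 0 to 2762 for WT mice at 3 days, from 0 (without IκBα-dn 3-week replicate 1 or IκBα-dn naive replicate 2) to 554 (without WT 3-day replicate 2) for IκBα-dn mice at 3 weeks, and from 1 (without WT 3-week replicate 2) to 929 (without IκBα-dn 3-day replicate 1) for WT mice at 3 weeks. At 6 weeks the median difference of the 8 genes was 0.40 and ran from 0.27 to 0.62, and S100a8 ran from 1.55 to 2.63. Of 2508 values of single genes under these settings, 105 moved by more than 1 SE. Only results that did not pass the test in the main fit could be counted so, and values that came to pass it were left out of this count. The values of 6 weeks were judged by the SD of their arrays.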

Other observations

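The array that was left out sets WT 6-week replicate 3 against a WT mouse whose labels give both 3 days and 3 weeks. With the dye effect removed, its log2 ratio was −2.31 for S100a8, −1.96 for S100a9, −1.70 for Camp, −1.09 for Ltf, −0.64 for Lcn2, −0.42 for Mpo, 0.10 for Ngp and 0.69 for Elane, with the mouse of 6 weeks on top of the ratio. The other probes of Ltf and Mpo stood at −1.70 and 0.04. On this array S100a8, S100a9, Camp and Ltf were lower in the WT mouse of 6 weeks, whichever time is right for the other mouse. Lcn2 and the first probe of Mpo were lower by less. This WT mouse is among those whose values at 6 weeks chose the set, so the array is a description and no separate evidence.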
